A study of Mus musculus with 14 samples.

Results

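Cholesterol is both made and disposed of by the liver, and 28 genes of these routes were followed here after loss of the splicing factor SRSF1 in mouse hepatocytes. They were chosen by name as genes of sterol synthesis, its control, intracellular sterol transport and export, and all 28 were found among the 54446 genes of the transcript table, as 166 of its 137767 transcripts. By role they are 19 enzymes of sterol synthesis, 4 genes that control the sterol-sensing transcription factor SREBP2, 1 sterol carrier, and 4 genes of the liver X receptor (LXR) and of export. All 28 passed the filter of a mean of at least 1 TPM (a gene's length-corrected share of a library's RNA) in every comparison.

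Sterol synthesis starts from acetyl-CoA, passes through mevalonate and farnesyl diphosphate to squalene and lanosterol, and ends in a chain of reductions and demethylations that yields cholesterol. When membranes of the endoplasmic reticulum are poor in sterol, SCAP escorts the precursor of SREBP2 to the Golgi, where it is cleaved and released to switch on the synthesis enzymes, whereas INSIG1 and INSIG2 hold it back when sterol is plentiful. Sterol excess acts through LXR, of which Nr1h3 encodes the form abundant in liver, and which switches on the exporters ABCA1, at the cell surface, and the ABCG5-ABCG8 pair, which secretes sterol into bile.

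The study measured poly(A) RNA of purified hepatocytes from C57BL/6 mice in 14 libraries of 6 groups. The acute knockout (acHKO, 3 libraries) came from Srsf1 f/f mice injected at 8 weeks with an AAV8 virus that expresses the recombinase iCre from the hepatocyte TBG promoter, and the GFP group (3 libraries) from Srsf1 f/f mice given the same virus type with GFP, both taken at 10 weeks. The hepatocyte knockout (HKO) came from srsf1f/f;albcre+/- mice, in which the albumin promoter drives Cre, with 2 libraries at 1 month of age and 2 at postnatal day 10 (P10). Its controls, 2 libraries at each age, were albcre+/- mice, which carry the Cre transgene without floxed Srsf1 in their label. Loss of Srsf1 and presence of iCre cannot be told apart in the acute groups, nor can the knockout and the floxed line in the HKO groups. The labels do not say whether libraries of a group came from separate animals, so p-values measure the spread between these libraries, which may be technical.

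Srsf1 itself measured 3.69, 5.34 and 4.16 TPM in acHKO libraries, against 16.5, 29.7 and 32.3 TPM in GFP libraries. Its level at 1 month was 7.74 and 9.17 TPM in HKO libraries, against 23.2 and 20.01 TPM in controls, and at P10 29.98 and 23.4 TPM in HKO libraries, against 43.6 and 46.4 TPM in controls. The knockout libraries were lower in each comparison with no overlap. Genes that mark hepatocytes were present in every library, with a summed level of 6 markers between 31253 and 111435 TPM. HKO P10 replicate 2 stood apart: it held 74.7 TPM of Xist, against at most 0.0147 TPM in the other libraries. Its Y-linked genes summed to 0.144 TPM, against 24.9 to 68.0 TPM in the other libraries. That is the pattern of a female library beside male ones, and the part of sex in the member levels at P10 was not tested. The same library held 2919 TPM of 7 erythroid markers, against 486 TPM in the other HKO library and 229 to 385 TPM in controls of that age. The share of TPM in mitochondrially encoded genes was 33.5% to 42.9% in acHKO libraries and 11.8% to 16.1% in GFP libraries, 35.8% to 50.6% in HKO and 26.0% to 31.2% in controls at 1 month, and 27.5% to 33.9% in HKO and 28.3% to 31.7% in controls at P10. Such a shift moves the share left for all other genes, and the median log2 fold change of all tested genes was -0.36 in the acute comparison, -0.0013 at 1 month and 0.25 at P10. Log2 fold changes below are therefore given relative to the median gene, on the log2(TPM + 1) scale, while adjusted p-values come from limma fitted to the TPM as deposited and span every gene tested. Values under 0.05 passed.

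The promoter of Hmgcs1 is shown because this gene passed as higher in the acute and the 1 month comparison. It encodes the cytosolic HMG-CoA synthase that commits acetyl groups to the pathway. Among the members that had a promoter window, its window was also the only one with the sterol regulatory element core. The sequence is the 250 bases before the RefSeq start (chr13:119690101-119690350, plus strand, GRCm38.p6). Capitals mark that core, searched as TCACNCCAC, and the NF-Y box, searched as CCAAT, both on either strand.
Hmgcs1 promoter: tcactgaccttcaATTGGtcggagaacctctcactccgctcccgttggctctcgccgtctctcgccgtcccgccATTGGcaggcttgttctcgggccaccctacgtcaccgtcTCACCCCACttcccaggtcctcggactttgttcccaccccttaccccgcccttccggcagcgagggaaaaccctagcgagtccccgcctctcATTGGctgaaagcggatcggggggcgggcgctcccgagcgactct
The core begins 137 bases before the start on the plus strand, and the NF-Y boxes, which read ATTGG here because they lie on the minus strand, begin 237, 176 and 45 bases before it. RefSeq windows of 300 bases (250 before to 50 after the start) were at hand for 24 members, as 32 windows. Sqle, Stard4, Fdps and Fdft1 had no window and were not searched. The core was found in 1 of the 32, against 1.242% of the 32851 windows of all genes, and the NF-Y box in 20 of the 32, against 37.4%. A match describes the letters in this window and no binding was measured.

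The acute comparison asked what sudden loss of SRSF1 does to these genes in adult liver. Of the 28 members, 3 were higher and 5 lower, where 5.93% of all 9963 tested genes were higher and 34.8% lower. Hmgcs1, Msmo1 and Dhcr7 are enzymes of an early, a middle and a final step of synthesis. Relative to the median gene they rose 2.802-fold, 2.74-fold and 2.23-fold in TPM + 1. The sterol carrier Stard4 and the isomerase Ebp fell to 0.541 and 0.689 of their GFP level on the same scale. The share of members called lower, 5 of 28, was below that of all genes, and the share called higher, 3 of 28, was slightly above it.

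Hmgcs1 (chr13:119690379-119708260, plus strand, GRCm38, as are the gene positions that follow) measured 26.2, 37.5 and 52.6 TPM in acHKO libraries, against 14.7, 12.0 and 25.5 TPM in GFP libraries. The groups did not overlap, although the lowest acHKO library lay just above the highest GFP library. The relative log2 fold change was 1.49 (SE 0.27, n = 3 each, limma adjusted p = 0.00409). Msmo1 (chr8:64718139-64733792, minus strand), the oxidase that removes methyl groups from the sterol ring, measured 52.2, 72.8 and 68.4 TPM in acHKO libraries, against 29.5, 18.98 and 45.3 TPM in GFP libraries. Here too every knockout library was above every GFP library (1.45, SE 0.26, adjusted p = 0.0036). Dhcr7 (chr7:143823145-143848410, plus strand), the reductase that yields cholesterol from its last precursor, measured 23.4, 27.3 and 24.8 TPM in acHKO libraries, against 12.1, 11.001 and 20.6 TPM in GFP libraries. Its knockout libraries were close together and its GFP libraries spread, with no overlap (1.16, SE 0.23, adjusted p = 0.0106), and it did not pass without GFP replicate 2 (adjusted p = 0.0686).

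Stard4, which carries sterol between membranes, measured 9.14, 9.19 and 10.8 TPM in acHKO libraries, against 20.6, 20.8 and 33.8 TPM in GFP libraries. It was the strongest fall among the members, with groups far apart (-0.89, SE 0.22, adjusted p = 0.000339). Ebp (chrX:8185329-8193512, minus strand), which shifts a double bond in the sterol ring, measured 42.3, 52.2 and 35.8 TPM in acHKO libraries, against 71.7, 83.1 and 89.3 TPM in GFP libraries (-0.54, SE 0.20, adjusted p = 0.00275). Acat2 (chr17:12942890-12960747, minus strand), the thiolase that joins acetyl-CoA units in the first step, measured 8.47, 8.94 and 9.86 TPM in acHKO libraries, against 13.9, 13.8 and 20.7 TPM in GFP libraries (-0.38, SE 0.21, adjusted p = 0.0094). In both genes every knockout library was below every GFP library. Tm7sf2, a sterol reductase, measured 33.7, 38.6 and 27.5 TPM in acHKO libraries, against 39.7, 47.4 and 65.9 TPM in GFP libraries (adjusted p = 0.0425). Relative to the median gene this difference was only -0.22 (SE 0.22), no larger than its error. The exporter Abca1 measured 14.9, 15.2 and 9.80 TPM in acHKO libraries, against 15.8, 23.7 and 25.2 TPM in GFP libraries (relative log2 fold change -0.29, SE 0.23, adjusted p = 0.029). Tm7sf2 and Abca1 lost their call after median-ratio rescaling (adjusted p = 0.121 for Tm7sf2 and 0.111 for Abca1), which sets the bulk of genes level, and without GFP replicate 2, GFP replicate 3 or acHKO replicate 3, and Tm7sf2 also without acHKO replicate 1.

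The split between higher and lower members moved with the scaling. After median-ratio rescaling 5 members were higher and 3 lower, where 14.1% of all genes were higher and 27.5% lower. The 2 that joined the higher ones were the squalene epoxidase Sqle (log2 fold change 0.70, limma adjusted p = 0.0209) and the kinase Pmvk (0.40, adjusted p = 0.0293). Sqle measured 13.04, 15.98 and 14.3 TPM in acHKO libraries, against 6.44, 10.8 and 16.2 TPM in GFP libraries, so that GFP replicate 3 lay above all knockout libraries. With mitochondrially encoded genes left out, 4 were higher, namely Hmgcs1, Sqle, Msmo1 and Dhcr7, and 1, Stard4, was lower, where 10.8% of all genes were higher and 7.84% lower, so that Acat2 and Ebp lost their call there as well. The authors' deposited table had 6 members higher and 3 lower, where 16.4% of all genes with an adjusted p were higher and 16.1% lower. In the authors' deposited table the higher ones were Hmgcs1 (1.502), Msmo1 (1.37), Dhcr7 (1.12), Sqle (0.74), the mevalonate kinase Mvk (0.66) and Pmvk (0.45). The lower ones in the authors' deposited table were Stard4 (-1.04), Ebp (-0.61) and Acat2 (-0.51).

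Between mevalonate and squalene no enzyme passed on the deposited TPM. The isomerase Idi1 measured 21.0, 35.6 and 32.1 TPM in acHKO libraries, against 19.98, 24.5 and 57.8 TPM in GFP libraries, with complete overlap (0.28, SE 0.30, limma adjusted p = 0.846). The other 19 members without a call in this comparison ranged in relative log2 fold change from -0.20 for Insig1 to 0.96 for Insig2. Over all 28 members the median was 0.29, with 18 above the median gene of all tested genes, and 10 had groups that did not overlap, where 53.7% of all tested genes did not. Of the 28 members 7, among them Idi1, Srebf2, Scap and Nr1h3, had a log2 fold change below 0 on the deposited TPM and above 0 relative to the median gene, and none of these passed. The summed level of the 19 synthesis enzymes was 404, 512 and 509.6 TPM in acHKO libraries, against 405, 412 and 669 TPM in GFP libraries. The sums overlapped, and GFP replicate 3 was the highest of all 6 libraries.

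Regulators and exporters were given apart from the enzymes. Srebf2, which encodes SREBP2, measured 4.82, 5.28 and 4.89 TPM in acHKO libraries, against 4.05, 6.65 and 6.38 TPM in GFP libraries (0.23, SE 0.21, limma adjusted p = 0.616). Scap measured 16.95, 16.5 and 15.7 TPM in acHKO libraries, against 16.2, 13.8 and 22.3 TPM in GFP libraries (0.31, SE 0.21, adjusted p = 0.84). The knockout libraries of both lay within the range of the GFP libraries. Insig1 measured 28.8, 36.7 and 40.3 TPM in acHKO libraries, against 35.3, 53.9 and 74.6 TPM in GFP libraries (-0.20, SE 0.24, adjusted p = 0.0724), with overlap. Insig2 measured 49.5, 205 and 39.6 TPM in acHKO libraries, against 40.2, 60.8 and 47.4 TPM in GFP libraries (0.96, SE 0.40, adjusted p = 0.242). Its mean rests on acHKO replicate 2 alone, and the other 2 knockout libraries lay within or below the GFP range. Nr1h3, the liver X receptor gene, measured 23.6, 19.6 and 17.7 TPM in acHKO libraries, against 21.8, 25.9 and 31.2 TPM in GFP libraries (0.01, SE 0.20, adjusted p = 0.167). Abcg5 measured 23.1, 27.4 and 26.3 TPM in acHKO libraries, against 34.1, 28.3 and 40.4 TPM in GFP libraries (-0.03, SE 0.20, adjusted p = 0.117). Its partner Abcg8 measured 22.9, 28.4 and 28.4 TPM in acHKO libraries, against 29.2, 19.2 and 31.9 TPM in GFP libraries (0.38, SE 0.22, adjusted p = 0.962). Of these 3 genes Abcg5 alone had no overlap between the groups, and none passed.

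Markers of other cells varied between the libraries. The summed level of 11 macrophage and Kupffer cell markers was 7.54 to 47.8 TPM in acHKO libraries and 5.16 to 13.01 TPM in GFP libraries, and that of 6 hepatocyte markers was 31253 to 48789 TPM in acHKO libraries and 39702 to 52195 TPM in GFP libraries. Both ranges overlapped. Of the 11 macrophage and Kupffer cell markers 6 were tested, and all 6 passed limma as higher, with a median relative log2 fold change of 1.28, while in each of them the libraries of the groups overlapped and 0 passed after median-ratio rescaling. The part of other cells in the member genes was not tested. In bulk RNA, fewer cells of a type and less RNA per cell cannot be told apart.

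**Figure D1:**
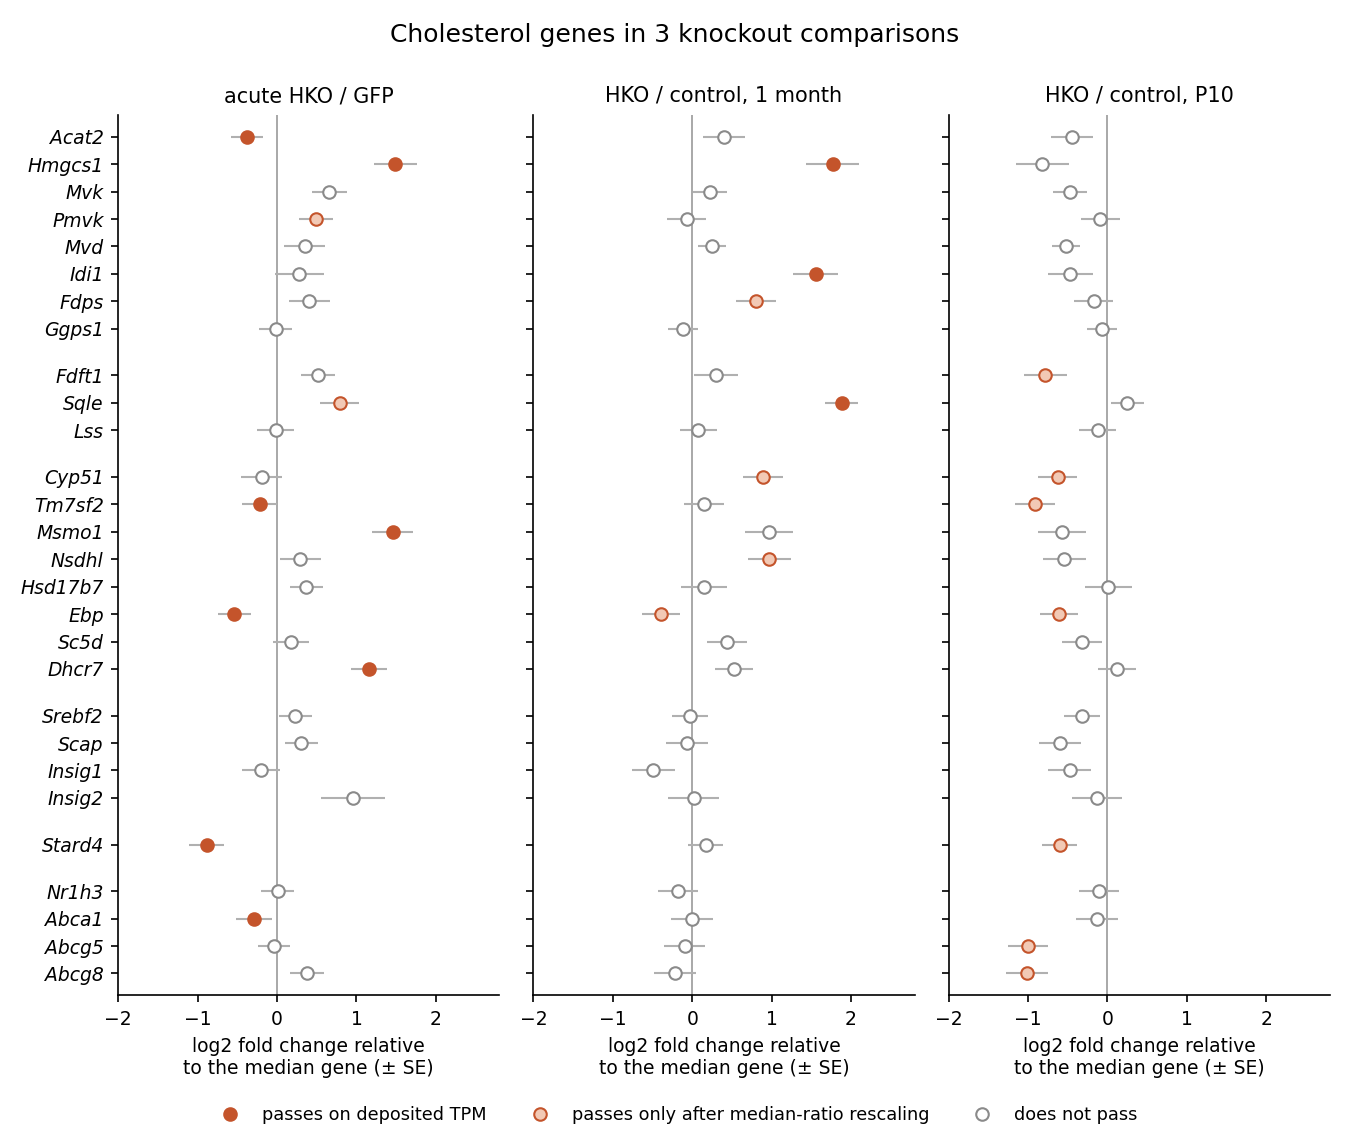
Log2 fold change of TPM + 1 relative to the median gene (horizontal axis) for the 28 members (vertical axis, by role), with bars of 1 standard error, for acHKO against GFP, HKO against control at 1 month and HKO against control at P10; filled points passed limma on the deposited TPM, pale ringed points only after median-ratio rescaling, and open points neither. Hmgcs1 lies at 1.49, 1.77 and -0.82 in the 3 panels, and the members' median at 0.29, 0.16 and -0.47.

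At 1 month the question was how the lasting knockout compares with its control in young mice. Of the 28 members 3 were higher and 0 lower by limma, where 4.87% of all 11736 tested genes were higher and 1.99% lower. They were Sqle, Hmgcs1 and Idi1, all enzymes of synthesis. Relative to the median gene they rose 3.69-fold, 3.41-fold and 2.94-fold in TPM + 1. Adding 1 shrinks ratios at low levels, and Sqle averaged 7.59 TPM in HKO libraries and 1.32 TPM in controls, a larger ratio. At an unadjusted p under 0.05 8 members were higher and 0 lower, where 11.8% of all genes were higher and 7.04% lower, and the authors' deposited table had 6 higher and 0 lower. The share called higher, 3 of 28, was above the 4.87% of all genes.

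Sqle (chr15:59315077-59331192, plus strand), which adds oxygen to squalene in a rate-limiting step, measured 6.74 and 8.45 TPM in HKO libraries, against 1.46 and 1.18 TPM in controls. The groups lay far apart (1.89, SE 0.21, n = 2 each, limma adjusted p = 0.000259), and the call held without each library in turn. Hmgcs1 measured 40.3 and 81.0 TPM in HKO libraries, against 15.5 and 16.7 TPM in controls (1.77, SE 0.33, adjusted p = 0.00794). Both knockout libraries were higher than both controls but differed from each other, replicate 2 being the higher. Idi1 (chr13:8885501-8892451, plus strand), which makes the isoprene unit that starts chain growth, measured 14.4 and 25.2 TPM in HKO libraries, against 5.80 and 5.87 TPM in controls (1.56, SE 0.28, adjusted p = 0.00661), with the same order of libraries.

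The other 16 synthesis enzymes gave no call on the deposited TPM. The lanosterol demethylase Cyp51 measured 8.08 and 12.1 TPM in HKO libraries, against 4.80 and 4.96 TPM in controls (0.89, SE 0.25, limma adjusted p = 0.0571). Nsdhl, a dehydrogenase of sterol demethylation, measured 7.34 and 10.9 TPM in HKO libraries, against 3.39 and 4.90 TPM in controls (0.97, SE 0.27, adjusted p = 0.0584). The farnesyl diphosphate synthase Fdps measured 15.9 and 23.3 TPM in HKO libraries, against 9.55 and 11.8 TPM in controls (0.80, SE 0.25, adjusted p = 0.089). In these 3 genes both HKO libraries were above both controls, while the share of all genes without overlap was not computed at this age. All 3 passed as higher after median-ratio rescaling. Under that scaling 6 members were higher and 1, Ebp, was lower, where 6.85% of all genes were higher and 7.83% lower. Ebp measured 45.0 and 56.9 TPM in HKO libraries, against 62.5 and 71.7 TPM in controls, a relative log2 fold change of -0.40 (SE 0.24, adjusted p = 0.426 on the deposited TPM and 0.0436 after rescaling). In the authors' deposited table the 6 higher members were Sqle (2.43), Idi1 (1.65), Hmgcs1 (1.79), Nsdhl (1.04), Cyp51 (0.95) and Fdps (0.78), where 8.97% of all genes were higher and 4.53% lower. With mitochondrially encoded genes left out, 14 members, all synthesis enzymes, were higher and 0 lower, where 20.5% of all genes were higher and 2.01% lower.

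Msmo1 and Dhcr7, which rose in the acute model, measured 17.7 and 22.8 TPM (Msmo1) and 10.4 and 13.1 TPM (Dhcr7) in HKO libraries at 1 month, against 13.4 and 7.03 TPM (Msmo1) and 6.53 and 9.26 TPM (Dhcr7) in controls. Neither passed (Msmo1 0.97, limma adjusted p = 0.0904, and Dhcr7 0.53, limma adjusted p = 0.265). No libraries of the groups overlapped in either gene, but the share of all genes without overlap was not computed at 1 month. At P10, with the same number of libraries per group, that share was 75.9%. Acat2 measured 8.02 and 14.2 TPM in HKO libraries, against 7.79 and 8.01 TPM in controls (0.40, adjusted p = 0.492), and Tm7sf2 measured 31.4 and 42.3 TPM in HKO libraries, against 27.8 and 38.7 TPM in controls (0.15, adjusted p = 0.838). Stard4, the strongest fall in the acute model, measured 4.83 and 6.78 TPM in HKO libraries, against 5.55 and 4.502 TPM in controls (0.17, adjusted p = 0.775), with overlap. Of the 19 enzymes 16 lay above the median gene of all tested genes, with a median of 0.40 over the enzymes and 0.16 over all 28 members. The summed level of the enzymes was 303 and 451 TPM in HKO libraries, against 243 and 281 TPM in controls, so that both knockout libraries were higher.

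None of the 4 genes of SREBP control or the 4 of LXR and export passed at 1 month, in limma, at an unadjusted p under 0.05 or in the authors' deposited table. Srebf2 measured 4.88 and 6.86 TPM in HKO libraries, against 6.13 and 5.71 TPM in controls (-0.02, SE 0.23, limma adjusted p = 0.977). Scap measured 18.1 and 24.4 TPM in HKO libraries, against 18.6 and 26.3 TPM in controls, and Insig2 179 and 263 TPM in HKO libraries, against 158 and 291 TPM in controls. All 3 genes overlapped between the groups. Insig1, itself a target of SREBP2 in other settings, measured 11.5 and 17.1 TPM in HKO libraries, against 24.2 and 16.8 TPM in controls (-0.49, SE 0.27, adjusted p = 0.383). It lay lowest of all 28 members at 1 month, while the synthesis enzymes that passed lay highest. Nr1h3 measured 18.2 and 26.8 TPM in HKO libraries, against 23.0 and 27.7 TPM in controls, and Abca1 9.82 and 16.1 TPM in HKO libraries, against 11.5 and 13.9 TPM in controls. Abcg5 measured 20.6 and 32.8 TPM in HKO libraries, against 27.3 and 28.5 TPM in controls, and Abcg8 11.1 and 18.3 TPM in HKO libraries, against 15.8 and 17.8 TPM in controls. In each of these 4 genes HKO replicate 1 was the lowest of the 4 libraries, and the relative log2 fold changes ran from -0.22 for Abcg8 to -0.00 for Abca1.

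Other measures moved at 1 month beside these genes. The summed level of 11 macrophage and Kupffer cell markers was 52.1 to 145 TPM in HKO libraries and 15.1 to 18.4 TPM in controls, with 8 of the 11 higher by limma, and that of 8 cholangiocyte markers 20.4 to 34.8 TPM in HKO libraries and 1.64 to 1.95 TPM in controls, where Cldn4 and Cldn7 were at 0. The 15 clock genes, whose level follows the time of day, summed to 63.9 to 77.1 TPM in HKO libraries and 130.3 to 227 TPM in controls, and 7 of 14 tested were lower and 1 higher. The clock repressor Nr1d1 measured 8.00 and 6.25 TPM in HKO libraries, against 22.0 and 20.7 TPM in controls, and Arntl 4.45 and 8.84 TPM in HKO libraries, against 2.09 and 2.64 TPM in controls. The time of day at which livers were taken is not given in the labels. In the acute comparison 6 of 14 clock genes tested were lower and 1, Ciart, was higher, where 34.8% of all genes were lower and 5.93% higher. After median-ratio rescaling 1 was lower and 1 higher there. Sterol synthesis genes are known to cycle over the day in mouse liver. The part of time of day or of other cells in the rises of Sqle, Hmgcs1 and Idi1 was not tested, nor that of time of day in the acute calls.

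**Figure D2:**
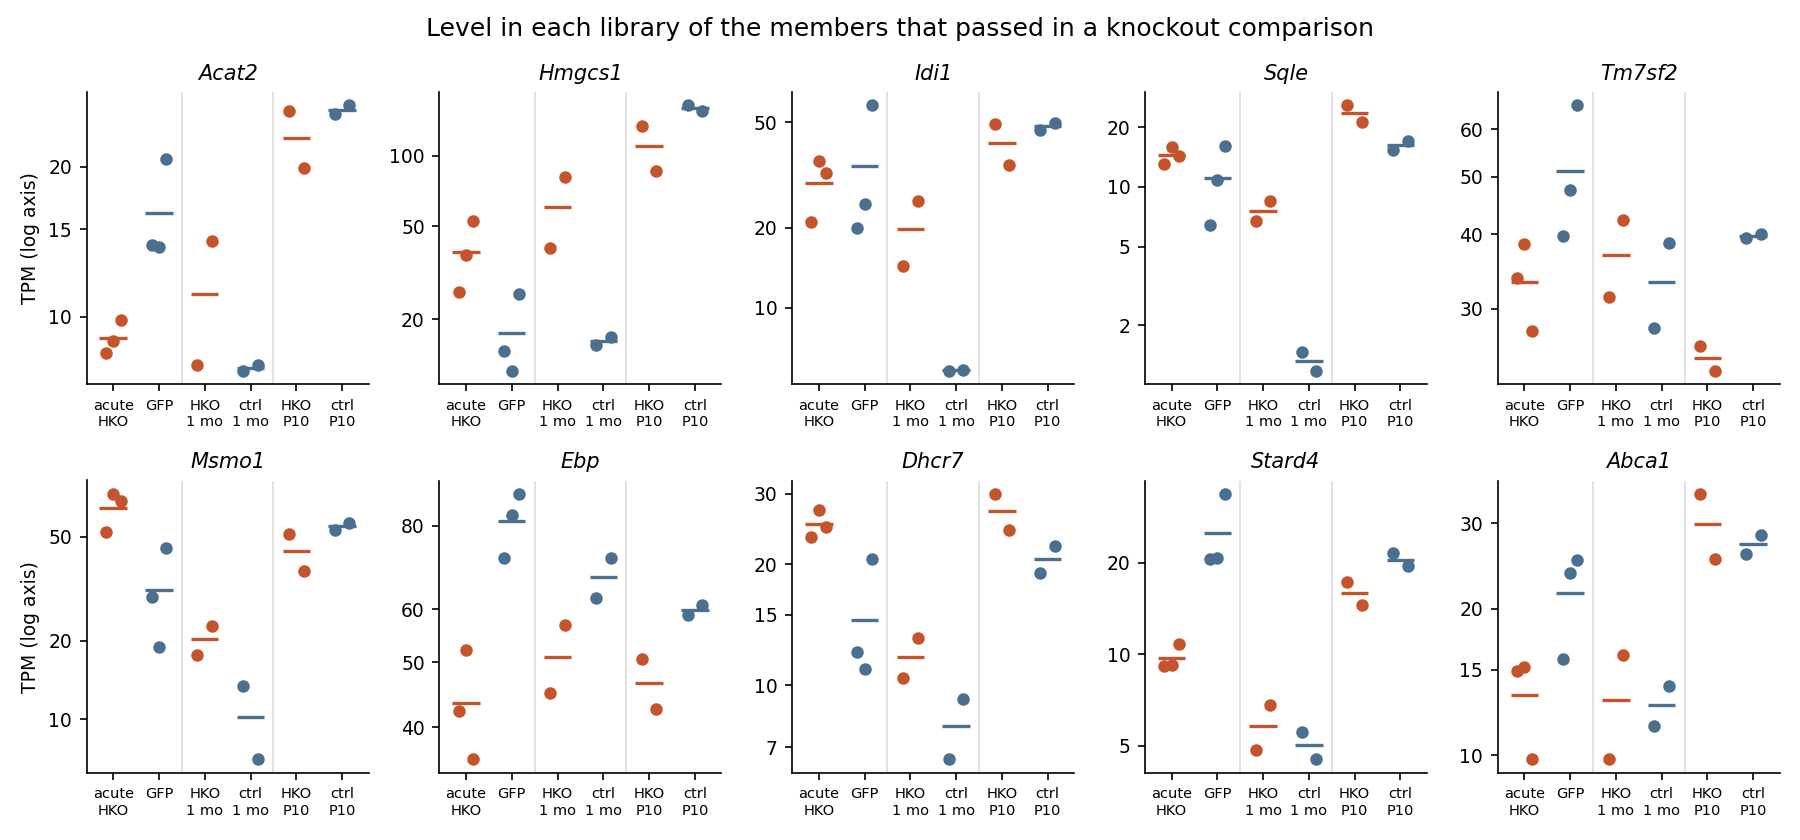
TPM on a log axis (vertical) of the 10 members that passed in a knockout comparison on the deposited TPM, 1 panel each, for every library (points) with the group mean (bar), in the order acHKO, GFP, HKO and control at 1 month, HKO and control at P10. Sqle lies at 6.74 and 8.45 TPM in HKO libraries and at 1.46 and 1.18 TPM in controls at 1 month, and Stard4 at 9.14 to 10.8 TPM in acHKO libraries and 20.6 to 33.8 TPM in GFP libraries.

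At P10, in pups, no member passed limma on the deposited TPM in either direction, where 10.8% of all 11736 tested genes were higher and 1.87% lower. At an unadjusted p under 0.05 1 member was higher and 3 were lower, where 25.1% of all genes were higher and 4.62% lower. The authors' deposited table had 17 lower and 0 higher, where 11.8% of all genes were lower and 13.4% higher. On the relative scale 25 of the 28 members lay below the median gene, with a median of -0.47, and 16 had groups that did not overlap, where 75.9% of all tested genes did not. For 7 of the 28, among them Insig2, Nr1h3 and Abca1, the log2 fold change on the deposited TPM was above 0. The exporter pair Abcg5 and Abcg8 lay lowest, near 0.499 and 0.496 of the control level in TPM + 1 when taken relative to the median gene.

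Abcg5 measured 24.9 and 22.7 TPM in HKO libraries, against 43.8 and 37.9 TPM in controls (-1.004, SE 0.25, n = 2 each, limma adjusted p = 0.0782). Abcg8 measured 18.6 and 14.4 TPM in HKO libraries, against 30.7 and 26.4 TPM in controls (-1.01, SE 0.26, adjusted p = 0.083). Both knockout libraries were below both controls in each gene of the pair. Tm7sf2 measured 25.9 and 23.6 TPM in HKO libraries, against 39.3 and 39.99 TPM in controls (-0.91, SE 0.25, adjusted p = 0.108), with the groups well apart. After median-ratio rescaling 7 members were lower and 0 higher, where 6.05% of all genes were lower and 6.22% higher. These were Abcg5 (-1.02, adjusted p = 0.00632), Abcg8 (-1.02, adjusted p = 0.0112), Tm7sf2 (-0.93, adjusted p = 0.0112), Ebp (-0.64, adjusted p = 0.0179), the squalene synthase Fdft1 (-0.80, adjusted p = 0.0268), Stard4 (-0.61, adjusted p = 0.0345) and Cyp51 (-0.64, adjusted p = 0.0409). All 7 were also lower in the authors' deposited table, where Abcg8 (-1.11), Abcg5 (-1.09) and Tm7sf2 (-0.99) lay lowest. With mitochondrially encoded genes left out, Fdft1, Tm7sf2, Abcg5 and Abcg8 were lower and Sqle was higher, so 4 and 1 members, where 3.77% of all genes were lower and 24.4% higher.

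The enzymes that rose at 1 month did not do so together at P10. Hmgcs1 measured 133 and 86.4 TPM in HKO libraries, against 164 and 156 TPM in controls (-0.82, SE 0.33, limma adjusted p = 0.27), with no overlap. Idi1 measured 49.3 and 34.4 TPM in HKO libraries, against 46.5 and 49.8 TPM in controls (-0.47, SE 0.28, adjusted p = 0.626), with overlap. Sqle measured 25.8 and 21.1 TPM in HKO libraries, against 15.3 and 17.1 TPM in controls (0.25, SE 0.21, adjusted p = 0.136), both knockout libraries being the higher. Dhcr7 stood likewise at 29.96 and 24.3 TPM in HKO libraries, against 18.996 and 22.3 TPM in controls (0.12, adjusted p = 0.308). HKO replicate 2, the library with high Xist and erythroid markers, was the lower of the pair in each of these 4 genes. Without HKO P10 replicate 2, and without each other library of this age in turn, the count of members passing limma was 0 in both directions.

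Of the other members that passed elsewhere, Acat2 measured 25.9 and 19.9 TPM in HKO libraries, against 25.5 and 26.6 TPM in controls. Msmo1 measured 51.3 and 36.9 TPM in HKO libraries, against 52.9 and 56.4 TPM in controls, and Ebp 50.7 and 42.5 TPM in HKO libraries, against 58.8 and 61.0 TPM in controls. Stard4 measured 17.3 and 14.6 TPM in HKO libraries, against 21.6 and 19.5 TPM in controls. In Msmo1, Ebp and Stard4 both knockout libraries were below both controls, and in Acat2 the groups overlapped. Among the regulators Srebf2 measured 16.3 and 11.5 TPM in HKO libraries, against 14.3 and 14.6 TPM in controls, and Scap 29.3 and 20.7 TPM in HKO libraries, against 32.8 and 30.2 TPM in controls. Insig1 measured 32.2 and 28.7 TPM in HKO libraries, against 41.1 and 31.0 TPM in controls, and Insig2 87.6 and 86.4 TPM in HKO libraries, against 87.0 and 73.8 TPM in controls. The relative log2 fold changes of these 4 ran from -0.59 for Scap to -0.14 for Insig2, none past the threshold. Nr1h3 measured 34.1 and 27.8 TPM in HKO libraries, against 27.2 and 28.4 TPM in controls, and Abca1 34.5 and 25.3 TPM in HKO libraries, against 25.9 and 28.4 TPM in controls, both with overlap. The cell-surface exporter Abca1 thus overlapped where the bile exporters did not. The sum of the 19 enzymes was 798 and 615 TPM in HKO libraries, against 804 and 827 TPM in controls.

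The 6 hepatocyte markers also lay lower at P10, with sums of 57797 to 73604 TPM in HKO libraries and 106186 to 111435 TPM in controls, and 3 of the 6 passed limma as lower. The 8 cholangiocyte markers summed to 129.9 to 163 TPM in HKO libraries and 57.6 to 70.2 TPM in controls, and the 11 macrophage and Kupffer cell markers to 470.4 to 691 TPM in HKO libraries and 394 to 414 TPM in controls, with 1 of the 11 higher by limma. Their part in the lower levels of Abcg5, Abcg8 and the enzymes was not tested.

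More members differed with age in controls than with the knockout at any age. In controls at 1 month, 20 members were lower and 1 higher than in controls at P10, where 38.2% of all tested genes were lower and 6.08% higher. Hmgcs1 averaged 16.1 ± 0.897 TPM at 1 month and 159.9 ± 6.11 TPM at P10 (SD, n = 2 each), a relative log2 fold change of -2.81 (SE 0.33, limma adjusted p = 1.79e-05). Sqle averaged 1.32 ± 0.202 TPM at 1 month and 16.2 ± 1.23 TPM at P10 (-2.46, SE 0.21, adjusted p = 1.6e-06), and Idi1 5.83 ± 0.0522 TPM at 1 month and 48.2 ± 2.30 TPM at P10 (-2.42, SE 0.28, adjusted p = 1.41e-05). On the log2(TPM + 1) scale these 3 showed the largest differences with age among the members and were also the 3 that rose in the knockout at 1 month. That scale shrinks differences at low levels. In controls Mvd averaged 0.531 TPM at 1 month and 5.01 TPM at P10, a larger ratio than that of Idi1, and it did not pass in the knockout at 1 month. The comparisons share the 1 month controls, so the match of the 3 genes is not independent support for either. In spite of that rise, the knockout libraries at 1 month stayed below the knockout libraries at P10 in all 3 genes.

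Fdft1, Mvd, Mvk, Fdps, Cyp51, Msmo1 and Stard4 also fell between these ages, with relative log2 fold changes between -1.94 and -1.31. Srebf2 fell less (-0.73, SE 0.23, limma adjusted p = 0.00188). Insig2 was the member that went the other way, with 158 and 291 TPM in controls at 1 month, against 87.0 and 73.8 TPM in controls at P10 (1.84, SE 0.32, adjusted p = 0.0042). Both older libraries were above both younger ones but differed widely from each other. Tm7sf2, Ebp, Ggps1, Hsd17b7, Scap, Nr1h3 and Abcg5 did not pass, and of these Ebp and Nr1h3 passed as higher after median-ratio rescaling, under which 16 members were lower and 3 higher, where 19.2% of all genes were lower and 26.1% higher. Ages also differ in their cells: macrophage and Kupffer cell markers summed to 15.1 to 18.4 TPM in controls at 1 month and 394 to 414 TPM in controls at P10, and their part was not tested.

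**Figure D3:**
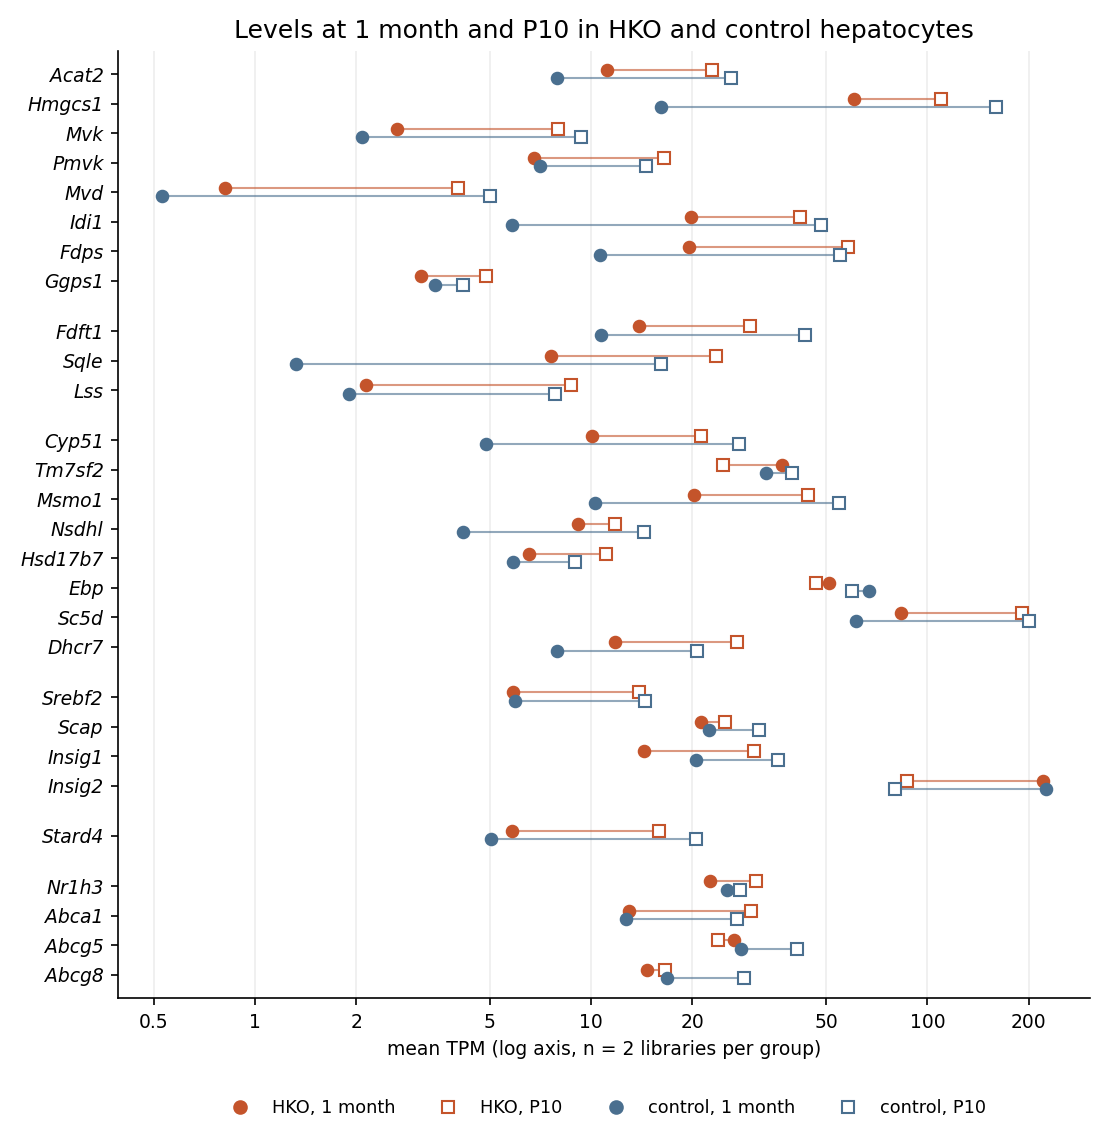
Mean TPM on a log axis (horizontal, n = 2 libraries per group) of the members (vertical, by role) in HKO and control libraries. Circles mark 1 month, open squares mark P10, and lines join the ages within HKO and within control. In controls Hmgcs1 averages 16.1 TPM at 1 month and 159.9 TPM at P10, while in HKO libraries it averages 60.6 TPM at 1 month and 109.9 TPM at P10.

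Whether the knockout acted differently at the 2 ages was tested as the difference of the effects. Hmgcs1, Idi1 and Sqle had a larger effect at 1 month than at P10, where 1.01% of all tested genes had a higher effect and 1.8% a lower one, and 0 members had a lower one. The difference relative to the median gene was 2.59 for Hmgcs1 (SE 0.47, limma adjusted p = 0.0244), 2.03 for Idi1 (SE 0.40, adjusted p = 0.0403) and 1.63 for Sqle (SE 0.29, adjusted p = 0.0323). Over all 28 members the median was 0.76, and 25 lay above the median gene. After median-ratio rescaling 7 members passed as higher, the same 3 with Fdps, Cyp51, Tm7sf2 and Nsdhl, where 2.32% of all genes did, and without mitochondrially encoded genes 10, where 2.34% did. These calls rest on few libraries. Without control P10 replicate 1 none of the 3 passed, and without control P10 replicate 2, HKO P10 replicate 2 or control 1 month replicate 2 Hmgcs1 alone passed.

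The acute and the 1 month effects were compared in the same way over all 14 libraries. Age, type of knockout and type of control differ together between these models, so their parts in a difference cannot be told apart. Stard4 had a lower effect in the acute model (-1.09, SE 0.32, limma adjusted p = 0.0159), and so did Sqle (-1.13, SE 0.38, limma adjusted p = 0.0342). Of all 11219 tested genes 5.82% had a lower effect, so the share of members, 2 of 28, was near the background. After median-ratio rescaling Acat2 joined Stard4 and Sqle, so 3 members had a lower effect, where 6.54% of all genes did. For Hmgcs1 the difference between the models was -0.31 (SE 0.50, adjusted p = 0.416). Both differences depended on single libraries: neither passed without control 1 month replicate 2 or HKO 1 month replicate 2, and Sqle did not pass without control 1 month replicate 1, GFP replicate 2, acHKO replicate 1 or acHKO replicate 3.

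SRSF1 regulates splicing, so the shares of each member's transcripts were compared as well. A gene was called when limma's diffSplice gave an adjusted p under 0.05 and 1 transcript changed its share by at least 10 percentage points. In the acute model 5 of the 14 members that could be tested were called, where 35.5% of the 3415 tested genes were called, so the members were near the background. At 1 month 0 of 15 were called, where 0.234% of 4265 genes were, and at P10 0 of 15, where 0.586% were. The lowest unadjusted p among members was 0.0679 for Fdps at 1 month, and at P10 Abcg8 and Tm7sf2 had unadjusted p under 0.05.

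Msmo1, the enzyme whose summed level rose in the acute model, also changed in composition. Its full-length transcript is Msmo1-201, and Msmo1-206 is annotated as a processed transcript without exons 2 and 3 of Msmo1-201. The coding parts of these exons are shown because reads over them can only come from transcripts other than Msmo1-206. Exon 2 contributes chr8:64727624-64727878 and exon 3 chr8:64723588-64723736, both on the minus strand of GRCm38.
Msmo1-201 exon 2, coding part: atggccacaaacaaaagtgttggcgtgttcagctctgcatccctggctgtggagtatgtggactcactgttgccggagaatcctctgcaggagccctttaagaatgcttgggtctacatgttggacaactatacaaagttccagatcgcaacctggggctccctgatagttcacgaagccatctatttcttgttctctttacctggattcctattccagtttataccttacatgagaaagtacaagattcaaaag
Msmo1-201 exon 3, coding part: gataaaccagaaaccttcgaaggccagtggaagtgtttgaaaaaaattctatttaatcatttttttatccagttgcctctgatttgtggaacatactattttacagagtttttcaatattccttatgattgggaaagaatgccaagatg
The 255 bases of exon 2 begin with the start codon atg. Msmo1-206 made up 16.3%, 23.9% and 15.8% of the gene's TPM in acHKO libraries, against 0.00%, 2.39% and 1.77% in GFP libraries (18.7 ± 4.58% and 1.39 ± 1.24%, SD, n = 3 each, diffSplice adjusted p = 0.000683). The groups lay far apart. The full-length Msmo1-201 still measured more in the knockout, with 41.8, 51.2 and 54.3 TPM in acHKO libraries, against 28.3, 16.9 and 40.1 TPM in GFP libraries, although its share was lower (76.6% in acHKO and 91.2% in GFP libraries). In the younger mice the share of Msmo1-206 did not follow the genotype. It was 28.1% and 7.99% in HKO libraries, against 38.7% and 16.02% in controls at 1 month, and 12.9% and 23.4% in HKO libraries, against 11.3% and 13.4% in controls at P10. The GFP libraries thus had the lowest shares of all 14 libraries.

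The sterol exporters of bile both shifted. Abcg5-201 encodes the full protein, and Abcg5-202 lacks exons 6 and 7 of it and begins inside it. These exons lie at chr17:84672154-84672293 and chr17:84671122-84671251, minus strand, GRCm38.
Abcg5-201 exon 6, coding part: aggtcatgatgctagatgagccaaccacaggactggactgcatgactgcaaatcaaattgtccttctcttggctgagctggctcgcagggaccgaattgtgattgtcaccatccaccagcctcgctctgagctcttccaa
Abcg5-201 exon 7, coding part: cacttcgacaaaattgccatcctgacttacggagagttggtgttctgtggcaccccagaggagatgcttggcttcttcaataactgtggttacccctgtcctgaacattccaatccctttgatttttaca
Abcg5-201 made up 79.6%, 84.5% and 82.6% of the gene in acHKO libraries, against 95.1%, 95.1% and 91.0% in GFP libraries, and Abcg5-202 8.58 ± 0.787% in acHKO and 4.04 ± 0.949% in GFP libraries (diffSplice adjusted p = 0.00895). Abcg5-204, annotated as a retained intron, took up more of the difference, with 8.59 ± 2.25% in acHKO and 1.99 ± 1.12% in GFP libraries and no overlap. The full-length share was lower in every knockout library. Its mean at 1 month was 85.4% in HKO libraries and 87.1% in controls, and at P10 90.0% in HKO libraries and 90.4% in controls. Abcg8-202 starts from another first exon and lacks exons 1 and 3 of Abcg8-201, whose coding parts lie at chr17:84683232-84683294 and chr17:84688532-84688688, plus strand, GRCm38.
Abcg8-201 exon 1, coding part: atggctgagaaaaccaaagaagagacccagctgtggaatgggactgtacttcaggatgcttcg
Abcg8-201 exon 3, coding part: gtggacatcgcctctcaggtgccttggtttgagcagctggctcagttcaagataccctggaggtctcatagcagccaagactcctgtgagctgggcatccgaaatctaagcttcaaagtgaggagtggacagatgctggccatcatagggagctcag
Abcg8-202 made up 8.40 ± 2.26% of the gene in acHKO and 2.42 ± 0.603% in GFP libraries. At P10 it made up 9.90% and 20.4% in HKO libraries, against 3.03% and 3.22% in controls, which did not pass (diffSplice adjusted p = 0.139).

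The third transcript, Abcg8-203, differs from Abcg8-201 at the junction of exons 1 and 2 by 3 bases at the acceptor, printed in capitals, and also at both ends. Its first exon has 164 bases, against 174 in Abcg8-201, and its last exon 302 bases, against 1672 in Abcg8-201. The shares of these transcripts therefore rest on reads at the ends as well as at the junction.
Abcg8-201 junction of exons 1 and 2: cttcaggatgcttcgCAGggcctccaggac
Abcg8-203 junction of exons 1 and 2: cttcaggatgcttcgggcctccaggac
Abcg8-203 made up 20.1%, 17.3% and 21.9% of the gene in acHKO libraries, against 38.2%, 41.4% and 38.9% in GFP libraries (diffSplice adjusted p = 0.00033 for the gene). Every knockout library was below every GFP library, and Abcg8-201 took up 71.8 ± 1.82% in acHKO and 58.1 ± 1.62% in GFP libraries. At 1 month Abcg8-203 averaged 17.9% in HKO libraries and 20.7% in controls, and at P10 26.5% in HKO libraries and 27.3% in controls. The GFP libraries thus had higher shares of Abcg8-203 than any other group, and the acHKO mean lay near the means at 1 month. Abcg5 and Abcg8 lie head to head on opposite strands and their transcripts overlap in the genome. The libraries were made with a stranded kit, per the labels, and whether the quantification used the strand was not stated there, so reads of the 2 genes in the shared stretch may not be told apart.

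The other 2 members called were Nr1h3 and Ebp. Nr1h3-201 made up 21.5%, 27.7% and 22.2% of the liver X receptor gene in acHKO libraries, against 42.7%, 43.7% and 39.7% in GFP libraries, and Nr1h3-202 64.9 ± 3.16% in acHKO and 46.5 ± 3.13% in GFP libraries (diffSplice adjusted p = 0.0039). These transcripts share all inner exons and differ in the ends of the first and last exon, so their shares rest on reads there. At 1 month Nr1h3-201 averaged 26.7% in HKO libraries and 32.3% in controls, and at P10 19.5% in HKO libraries and 26.3% in controls. Its share was thus higher in GFP libraries than in any other group. Ebp-204 is a short transcript annotated as a retained intron. It made up 17.4%, 14.6% and 15.4% of the gene in acHKO libraries, against 27.9%, 27.2% and 22.5% in GFP libraries (diffSplice adjusted p = 0.0327). At 1 month Ebp-204 averaged 3.87% in HKO libraries and 3.92% in controls, and at P10 8.99% in HKO libraries and 8.87% in controls. Here too the GFP libraries had higher shares than any other group. The coding transcript Ebp-201 fell with the gene, at 32.3, 41.1 and 27.9 TPM in acHKO libraries, against 49.0, 56.8 and 65.0 TPM in GFP libraries. The Ebp call did not hold without GFP replicate 1, GFP replicate 2 or any 1 acHKO replicate, nor with the replicate block, with adjusted p up to 0.126 and a change of share between 9.06 and 10.8 points.

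**Figure D4:**
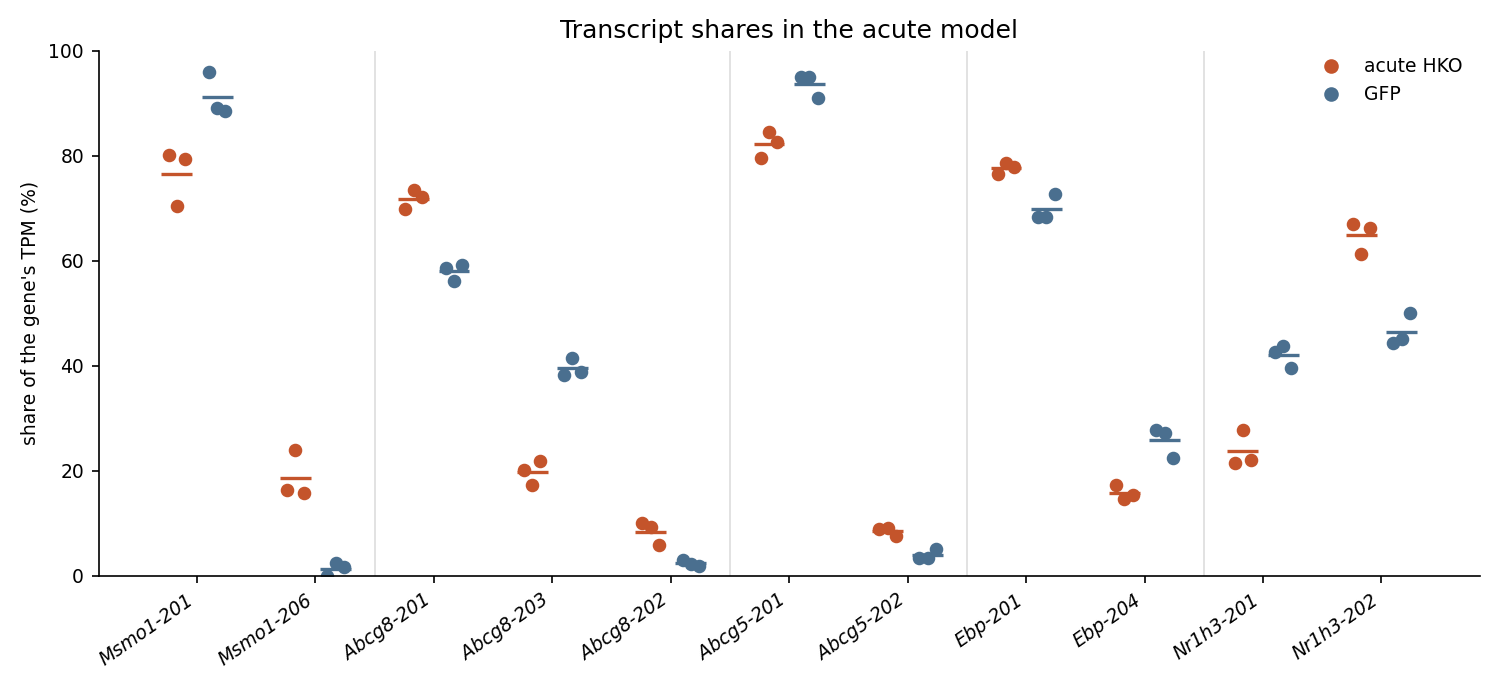
Share of the gene's TPM in percent (vertical) of transcripts of the 5 members called in the acute model, with points for libraries and bars for group means, acHKO left of GFP. Msmo1-206 lies at 15.8% to 23.9% in acHKO libraries and at 0.00% to 2.39% in GFP libraries, and Abcg8-203 at 17.3% to 21.9% in acHKO libraries and 38.2% to 41.4% in GFP libraries.

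Genes beside the members were read from lists of the same pathways. Among genes of SREBP processing and sterol-regulated degradation, 7 of 16 tested were lower in acHKO than in GFP libraries and 0 higher, where 34.8% of all genes were lower, and the authors' deposited table had 6 lower and 0 higher. The lower ones included the ATPase Vcp (-0.54) and Paqr3 (-0.51), a Golgi anchor of SCAP. At 1 month and P10 0 of these 16 passed limma in either direction, while 1 at 1 month and 2 at P10 were higher at an unadjusted p under 0.05, and the authors' deposited table had 1 higher at each age.

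Of other sterol and SREBP-linked genes, 1 of 11 tested was higher and 5 lower in the acute model, where 5.93% of all genes were higher and 34.8% lower. They included the fatty acid elongase Elovl6, at 5.37 TPM in acHKO and 21.1 TPM in GFP libraries (-1.46, SE 0.22, limma adjusted p = 1.45e-05), the fatty acid binding protein Fabp5 (-2.28, SE 0.46, adjusted p = 0.000336) and the desaturase Fads2 (-0.91, SE 0.22, adjusted p = 0.0003). The last and Elovl6 belong to fatty acid synthesis, so the list does not read as sterol synthesis alone. At 1 month 2 of 12 were higher and 0 lower: Fabp5 (1.01, SE 0.24, adjusted p = 0.0301) and Tmem97 (0.87, SE 0.23, adjusted p = 0.0463), a sterol-regulated membrane protein. At P10 Elovl6 alone of 12 was higher (1.25, SE 0.26, adjusted p = 0.00422) and 0 were lower.

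Of genes for uptake, esterification and trafficking of cholesterol, 4 of 14 tested were lower and 0 higher in the acute model, a share below the 34.8% of all genes, with small differences in the cholesteryl ester hydrolase Nceh1 (-0.32), the lysosomal carrier Npc2 (-0.25) and the sterol transporter Gramd1a (-0.24). After median-ratio rescaling 4 of this list were higher and 3 lower in the acute model, where 14.1% of all genes were higher and 27.5% lower. The authors' deposited table had 6 higher and 3 lower, where 16.4% of all genes were higher and 16.1% lower. The balance of the list thus turned with the scaling, and that of all genes moved the same way. At 1 month 0 of 15 passed limma, with 1 higher and 0 lower at an unadjusted p under 0.05 and 2 higher and 0 lower in the authors' deposited table. At P10 the lysosomal exporter Npc1 alone was higher (0.58, SE 0.23, limma adjusted p = 0.0371), while the authors' deposited table had 2 higher and 4 lower.

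Of LXR partners and targets, 2 of 7 tested were lower in the acute model, the transporter Abca2 (-0.47, SE 0.20, limma adjusted p = 0.00409) and Smpdl3a (-0.32, SE 0.19, adjusted p = 0.0114), a share below the 34.8% of all genes. After median-ratio rescaling 2 of the list were higher and 2 lower, where 14.1% of all genes were higher and 27.5% lower. The authors' deposited table had 4 higher and 2 lower, where 16.4% of all genes were higher and 16.1% lower. At 1 month the phospholipid transfer protein gene Pltp was higher (0.94, SE 0.24, adjusted p = 0.0429), and at P10 the exporter Abcg1 was higher (0.57, SE 0.18, adjusted p = 0.0154), 1 of 9 in each. Neither passed after median-ratio rescaling (adjusted p = 0.0643 for Pltp and 0.0765 for Abcg1). The authors' deposited table had 4 of the list higher and 0 lower at 1 month, and 2 higher and 3 lower at P10. Of the 12 genes of the isoprenoid branch, which uses farnesyl and geranylgeranyl groups for protein prenylation, dolichol and ubiquinone, 0 passed limma in the acute model, with 0 higher and 1 lower at an unadjusted p under 0.05 and 1 higher in the authors' deposited table. At 1 month 0 passed, with 0 at an unadjusted p under 0.05 and 0 in the authors' deposited table, and at P10 the prenyltransferase subunit Rabggtb alone was higher (0.64, SE 0.25, adjusted p = 0.0371).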

How the data were processed

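The authors deposited transcript abundances in TPM for 14 libraries, made with bcl2fastq 2.17.1.14 and kallisto 0.46.0 on GRCm38, per the submitters' processing notes. They also deposited 3 gene tables made with DESeq2 which, per the file headers, hold log2 fold changes with standard errors, a test score, and raw and adjusted p-values. TPM keep no depth, so library depth is unknown and count models were not used.

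Transcript TPM were summed by gene. limma 3.58.1 in R 4.3.3 (mean-variance trend, two-sided) was fitted to log2(TPM + 1) over all genes whose mean reached 1 TPM. P10 and 1 month shared a fit of 8 libraries, and the acute groups had their own fit of 6. P-values were adjusted by Benjamini and Hochberg over all genes. Transcript shares were tested with diffSplice on transcripts of at least 1 TPM and 5% of their gene. The scripts were tested on simulated data.

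The members and pathway lists were chosen with earlier results of these data known. Members that passed in a knockout comparison, and all regulators and exporters, are given by library, and of each pathway list at most 3 that passed are named (1 is not reported here). Promoter windows are from RefSeq (GRCm38.p6) and exons from GENCODE M21. Alternatives were a pseudocount of 0.1, no filter, median-ratio rescaling, mitochondrially encoded genes left out, a replicate block, all libraries in 1 fit, and each library left out.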

Additional observations from a re-analysis of the deposited data

Results flagged for a closer look

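For 5 member results the test of the difference between 2 effects passed, given here on the deposited TPM without reference to the median gene. The knockout effect at 1 month exceeded that at P10 by 2.34 on the log2 scale for Hmgcs1 (limma adjusted p = 0.0244), by 1.77 for Idi1 (adjusted p = 0.0403) and by 1.38 for Sqle (adjusted p = 0.0323). At 1 month both HKO libraries were above both controls in all 3 genes, and at P10 they were below both controls in Hmgcs1, overlapped with them in Idi1 and were above them in Sqle. The acute effect minus the 1 month effect was -1.46 for Sqle (limma adjusted p = 0.0342) and -1.42 for Stard4 (limma adjusted p = 0.0159). These 2 of 28 members were near the 5.82% of all tested genes with a lower effect. Age, type of knockout and type of control differ together between the acute and the 1 month groups, so their parts cannot be told apart. For Stard4 all 3 acHKO libraries were below all 3 GFP libraries, while at 1 month the groups overlapped. At 1 month the clock genes differed between the groups as well, and HKO P10 replicate 2 differed from the other libraries in Xist, and their part was not tested.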

How the results depend on the processing

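No member result that passed changed its direction under the alternatives run. Members that did not pass were not followed through them, and some lay on opposite sides of 0 on the deposited TPM and relative to the median gene. The count of members passing limma moved as follows. Among these alternatives, shares of all genes were computed only for median-ratio rescaling and without mitochondrially encoded genes. Under the other settings the counts cannot show whether the members moved apart from all genes. Without a filter on low values, the acute comparison had 0 higher and 2 lower, 1 month had 1 higher, the difference between the 1 month and P10 effects 0 higher, and that between the acute and 1 month effects 0 lower. After median-ratio rescaling, the acute comparison had 5 higher and 3 lower, 1 month 6 higher and 1 lower, P10 7 lower, the controls 3 higher at 1 month than at P10, and the difference between the 1 month and P10 effects 7 higher. Without mitochondrially encoded genes, the acute comparison had 1 lower, 1 month 14 higher (where 20.5% of all genes were higher), P10 1 higher and 4 lower, and the difference between ages 10 higher. A pseudocount of 0.1 gave 5 higher at 1 month. Leaving out each library in turn gave 3 to 6 lower in the acute comparison, 3 to 5 higher at 1 month, 0 to 3 higher for the difference between ages and 0 to 5 lower for the acute minus 1 month effect. The lowest acute count came without GFP replicate 2 or 3, the highest at 1 month without HKO replicate 1, and the 5 for the acute minus 1 month effect without HKO 1 month replicate 1 or GFP replicate 1. Where 1 library of a group was left, it was assumed to vary like the other groups. The cause of these moves was not tested.

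Libraries with the same number were not shown to be paired: their deviations correlated at 0.0072 at P10, 0.283 at 1 month, and -0.0392, 0.27 and 0.184 in the acute groups, where acHKO replicate 1 correlated best with GFP replicate 3. With the replicate block, 3 members were lower in the acute comparison, 7 higher at 1 month, 3 lower at P10, 5 higher for the difference between ages and 5 lower for the acute minus 1 month effect, and transcript usage of 1 member, Abcg8, was called at P10. The shares of all genes called with the block were not computed. The depth behind the TPM is unknown, and groups of 2 or 3 libraries limit the precision.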
